A study of Mus musculus with 56 samples.

Results

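The transcripts of 7 receptors of the chemokine system, Cxcr3, Cxcr4, Cxcr6, Ccr2, Ccr9, Ccrl2 and Cx3cr1, were followed in fetus- and graft-specific CD8+ T cells (TFGS) of female mice. The members are those rows of the raw count table whose Ensembl identifier belongs to 1 of these symbols, so 7 of 55359 genes. All 7 passed the filter on low counts, which left 19657 genes to be tested. The mice were C57BL/6 females, bought as young adults, and the cells were OVA:Kb-specific CD8+ T cells sorted from the pooled spleen and lymph nodes of individual animals. Naive mice had neither a graft nor a pregnancy. Sensitized mice had rejected a skin graft from a male 2W-OVA.BALB/c donor, which expresses the 2W-OVA antigen constitutively. Naive mothers (N+P) had 2W-OVA.BALB/c males as mates and were analysed just after giving birth, and Sensitized mothers (S+P) had the same mates after the graft had been rejected. TFGS of mothers were divided by surface PD1 and CD73 into PD1- cells (N+P C1, S+P C4), PD1+CD73+ cells (N+P C5, S+P C5) and PD1+CD73- cells (S+P C7, sorted only from Sensitized mothers). A gate on PD1 and CD73 selects part of a mother's TFGS, whereas the Naive and Sensitized groups were not divided in this way. Pregnancy and gate thus cannot be told apart in a comparison of a sorted subset with either. Per the study, Sensitized mice were analysed from the same minimum time after the graft at which Sensitized mothers were mated. Time since the graft thus cannot be told apart from pregnancy when S+P subsets are compared with Sensitized cells.

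Each library was made from 200 sorted cells by SmartSeq2, and libraries of 1 mouse and subset were summed. Of the 56 libraries, with 6636532 to 32625243 counts each, the first Naive library held the same counts as the first S+P C4 library and was left out of both groups. The S+P C7 libraries of replicates 1 and 2 that correlated at r = 0.9975 over log2 CPM were averaged, and the 2 mice were counted as 1 sample. The highest correlation between libraries of 1 mouse and subset was otherwise 0.9026. The result was 30 samples, made up of 3 Naive, 3 N+P C1, 3 N+P C5, 4 Sensitized samples, and from Sensitized mothers 6 of C4, 6 of C5 and 5 of C7. Summed totals ran from 15547934 to 54809406 counts. In 3 samples fewer than 9000 genes were detected, namely S+P C4 replicate 2 with 8002, S+P C4 replicate 3 with 7436 and S+P C7 replicate 3 with 7879, against a median of 15974.5 over all samples. Each of these came from a single library.

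The CD8 T cell markers (Cd8a, Cd8b1, Cd3e, Cd3d, Cd3g and Trac) were detected in every group and summed to between 4490 and 8787 CPM (counts scaled to a common library total) in each sample. Markers of other cells were also found. B cell markers, led in most samples by Ighm, summed to a median of 848 CPM in Naive, 862 CPM in N+P C1, 507 CPM in N+P C5 and 475 CPM in Sensitized cells, and to 337, 312 and 289 CPM in S+P C4, C5 and C7. Their part in the differences between groups was not tested. S+P C7 replicate 3 held 15267 CPM of B cell markers, led by Ighm at 8233 CPM, and 20082 CPM of erythroid markers, led by Hba-a1 at 10046 CPM. The next highest B cell and erythroid sums were 2222 CPM and 419 CPM. Sensitized replicate 1 held 358 CPM of monocyte or macrophage markers, nearly all of it Lyz2 at 332 CPM, against at most 99.7 CPM in any other sample. The highest dendritic cell sum was 500.02 CPM, also in S+P C7 replicate 3 and led by Xcr1 at 349 CPM, and the highest neutrophil sum 109.3 CPM in Sensitized replicate 4, led by S100a8. Natural killer cell markers summed to 759 CPM in S+P C7 replicate 3, where Klre1 stood at 289 CPM and Ncr1 at 102.7 CPM. They also summed to 511 CPM in the averaged S+P C7 sample and to 545 and 469 CPM in S+P C4 replicates 4 and 1, led by Klre1 in each. Markers of CD4 T cells and gamma-delta T cells reached at most 50.4 and 12.4 CPM. Of single markers in these lists, Csf1r was at 0 in 23 of 30 samples, Adgre1 in 25 and Ncr1 in 23. Others were found in most samples, Cd68 being at 0 in 3 of 30, Klrb1c in 5 and Klre1 in 1. The median of Cd68 was 55.0 CPM in S+P C5 and 69.6 CPM in S+P C7, against 10.5 CPM in Sensitized cells. As these are bulk libraries, a lower value cannot be divided into fewer cells that hold a transcript and less transcript per cell.

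Chemokine receptors are membrane proteins with 7 transmembrane segments that signal through inhibitory G proteins, and a T cell follows the gradient of the ligand whose receptor it carries. CXCR3 binds the interferon-induced ligands CXCL9 and CXCL10 and is carried by effector and memory CD8+ T cells. CXCR6 binds CXCL16, a ligand that also exists in membrane-bound form, and marks many T cells that lodge in tissue. CCR2 binds CCL2 and its relatives and is best known from monocytes. CX3CR1, the receptor of fractalkine (CX3CL1), is graded along effector differentiation in CD8+ T cells. CCR9 responds to CCL25 of the small intestine and thymus. CXCR4 binds CXCL12, which holds cells in bone marrow. CCRL2 is an atypical receptor that binds chemerin and is not known to signal to migration.

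Of the 7 genes, 5 lie on mouse chromosome 9 (GRCm39). From proximal to distal these are Ccrl2 (chr9:110883554-110886591, minus strand), Cx3cr1 (chr9:119877749-119898945, minus strand), Ccr9 (chr9:123507181-123613395, plus strand), Cxcr6 (chr9:123635534-123640825, plus strand) and Ccr2 (chr9:123901982-123913594, plus strand). Cxcr6 lies 22.1 kb beyond Ccr9, and Ccr2 261.2 kb beyond Cxcr6. Cxcr3 is on chromosome X (chrX:100775141-100777875, minus strand) and Cxcr4 on chromosome 1 (chr1:128515936-128520044, minus strand). Cxcr6 lies within the span of Fyco1, a gene of the opposite strand with which it shares 0 exon bases. Of the exon bases of Ccr9, 18.3% also belong to Gm17021 on the opposite strand, 5.6% to Gm17200 on the same strand and 4.1% to Slc6a20a on the opposite strand. Cx3cr1 shares 1.7% of its exon bases with Gm33858 on the opposite strand. SmartSeq2 does not mark strand, so reads from these shared bases cannot be assigned, and the levels of both genes are uncertain to that extent. Promoters of all 7 genes were found in the RefSeq table (GRCm38.p6), each of them with 1 exact match in GRCm39. The 250 bases upstream of the annotated start are shown for Cxcr3, the 1 member that passed the test between Sensitized and Naive cells, for Cxcr6 and Cx3cr1, which share a motif with it, and for Ccr9, whose level ran the other way. Lower case is plain sequence, and capitals mark matches to TGTGGT (Runt motif) or to CCACCC, a box of Kruppel-like factors, on either strand. Upstream of Cxcr3 the printed bases are chrX:100777754-100778003 (minus strand) and of Cxcr6 chr9:123635292-123635541 (plus strand). Those of Cx3cr1 are chr9:119897363-119897612 (minus strand) and those of Ccr9 chr9:123596026-123596275 (plus strand), all in GRCm39. The bases of Cx3cr1 and Ccr9 lie inside the span of the GENCODE gene, and those of Cxcr3 and Cxcr6 do so in part.
Cxcr3: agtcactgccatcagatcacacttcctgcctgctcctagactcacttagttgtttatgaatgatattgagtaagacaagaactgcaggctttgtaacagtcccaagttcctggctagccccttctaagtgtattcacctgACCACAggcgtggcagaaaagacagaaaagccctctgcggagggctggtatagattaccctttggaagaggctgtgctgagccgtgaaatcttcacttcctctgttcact
Cxcr6: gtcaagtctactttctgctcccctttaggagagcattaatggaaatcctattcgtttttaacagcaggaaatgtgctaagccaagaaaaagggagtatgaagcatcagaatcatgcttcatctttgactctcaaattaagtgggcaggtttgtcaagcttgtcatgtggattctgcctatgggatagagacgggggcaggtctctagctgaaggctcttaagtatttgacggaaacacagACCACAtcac
Cx3cr1: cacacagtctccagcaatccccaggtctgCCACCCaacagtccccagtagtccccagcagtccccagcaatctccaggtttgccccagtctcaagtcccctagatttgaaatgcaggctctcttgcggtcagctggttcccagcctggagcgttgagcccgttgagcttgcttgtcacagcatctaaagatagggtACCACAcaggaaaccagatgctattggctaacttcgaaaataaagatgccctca
Ccr9: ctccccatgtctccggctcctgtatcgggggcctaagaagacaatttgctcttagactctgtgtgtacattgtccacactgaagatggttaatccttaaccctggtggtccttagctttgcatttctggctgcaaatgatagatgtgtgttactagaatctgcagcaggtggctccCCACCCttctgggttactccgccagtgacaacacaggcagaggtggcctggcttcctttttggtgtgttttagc
In windows from 250 bases before to 50 bases after the start, TGTGGT was found on either strand for 3 of the 7 genes (Cxcr3, Cxcr6 and Cx3cr1) and for 18.92% of all 27025 genes in the table. CCACCC was found for 3 of the 7 (Ccr9, Ccrl2 and Cx3cr1) and for 34.05% of all genes. The letters AGGTGT (T-box motif) were in no window of the 7 and in 15.7% of all genes. Neither TGANTCA (AP-1) nor TTCNNNGAA (STAT) was in any of the 7, against 8.97% and 9.55% of all genes. These matches are descriptions of letters and say nothing of binding.

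Scaled by length of the canonical transcript, Cxcr6 and Cxcr3 were the most abundant of the 7 in most groups. Cxcr6 led in Naive cells at 83.5 ± 6.45 CPM per kb (SD, n = 3), N+P C1 at 61.0 ± 11.4 (n = 3), Sensitized at 252.7 ± 29.1 (n = 4), S+P C4 at 192.7 ± 105 (n = 6) and S+P C7 at 222.8 ± 104.8 CPM per kb (n = 5). Cxcr3 led in both PD1+CD73+ subsets, at 222.5 ± 42.8 CPM per kb in N+P C5 (n = 3) and 274.3 ± 101 CPM per kb in S+P C5 (n = 6). In Sensitized cells Cxcr3 followed Cxcr6 within its spread, at 221.4 ± 56.4 CPM per kb. Cx3cr1 stood second in S+P C4 at 144.1 ± 135 CPM per kb, with an SD close to its mean, and at rank 5 of 7 in Naive cells at 1.53 ± 2.63 CPM per kb. Ccr2 reached 33.0 ± 25.8 CPM per kb in S+P C4, its highest mean, and 0.478 ± 0.548 in Naive cells. Ccr9 was at rank 3 in Naive cells at 23.5 ± 1.9 CPM per kb and last in S+P C7 at 0.672 ± 0.908 CPM per kb. Cxcr4 ran between 7.39 and 22.1 CPM per kb over the group means. The highest mean, in S+P C4, included replicate 2 at 148.5 CPM, against 7.09 to 24.4 CPM in its other samples. The lowest, in S+P C7, included the averaged sample at 38.4 CPM, against 2.90 to 9.83 CPM in its others. Ccrl2 had the lowest mean in 6 of the 7 groups and was never above 4.03 CPM per kb by mean.

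**Figure D1:**
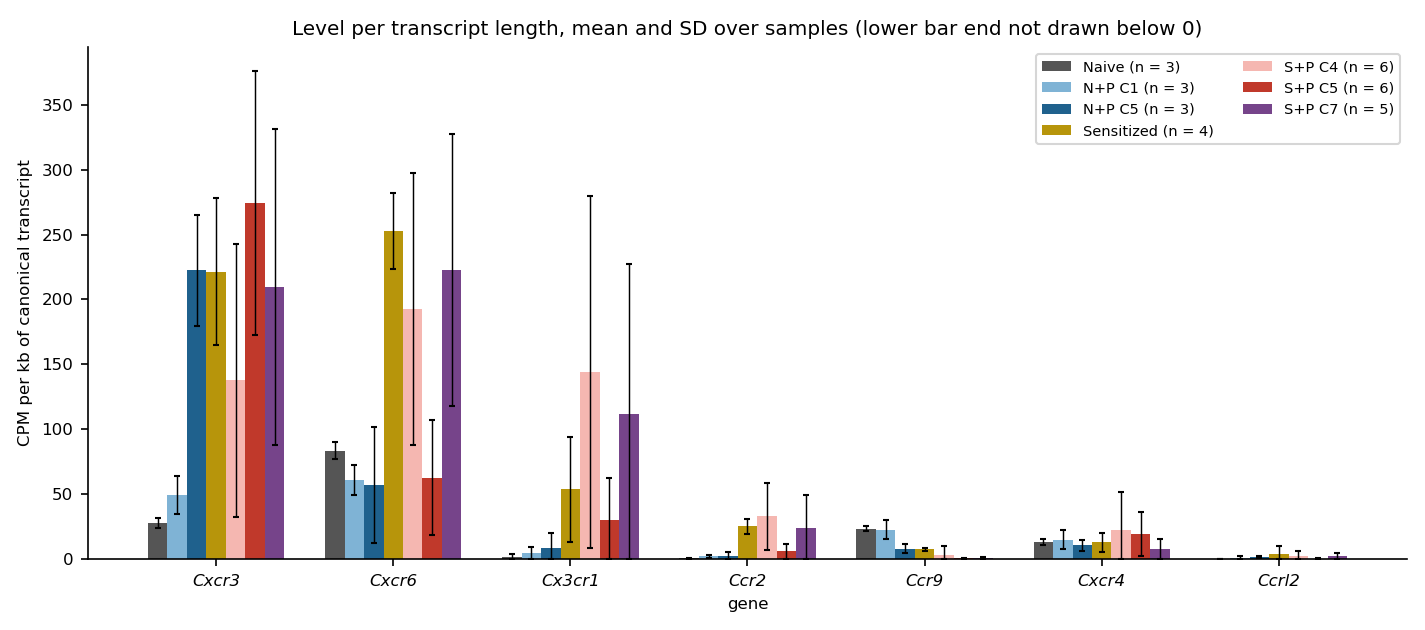
Mean level of each receptor per kb of its canonical transcript (vertical axis, CPM per kb, linear) in the 7 sorted groups (coloured bars), with error bars of 1 SD over samples and the number of samples in the key. Cxcr3 and Cxcr6 are the tallest sets, Cxcr6 stands at 62.8 CPM per kb in S+P C5 while Cxcr3 reaches 274.3 there, and Ccrl2 is at 4.03 or lower.

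The error of a single library of 200 cells was gauged from the 23 samples with 2 distinct libraries. Between the libraries of 1 mouse and subset, Cxcr3 differed by a median factor of 1.23 and Cxcr6 by 1.37, and neither was at 0 in any of the 54 distinct libraries. Cxcr4 differed by a median factor of 2.07 and by up to 7.95 between libraries above 0. Ccr2, Ccr9 and Cx3cr1 differed by median factors of 1.53, 1.525 and 1.66, with 1 library of the pair at 0 in 3, 3 and 2 samples. Single pairs of theirs differed far more, by up to 39.6, 372 and 197, and those of Ccrl2 by up to 258. Ccrl2 was at 0 in 29 of 54 libraries, and in 9 of 23 pairs 1 of the libraries was at 0. Cxcr3 and Cxcr6 were thus the members measured with the least library error, and Ccrl2 the one with the most.

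The first comparison, of Sensitized with Naive TFGS, addressed what rejection of a skin graft leaves in the memory cells. Cxcr3 was 383 ± 97.6 CPM (SD, n = 4) in Sensitized cells and 48.1 ± 6.19 CPM (n = 3) in Naive cells, and Cxcr3 was the 1 member that rose past both thresholds (an adjusted p below 0.1, and more than 0.9 on the log2 scale in either direction). Ccr2, Cx3cr1 and Cxcr6 were also higher in each Sensitized sample than in any Naive sample, and Ccr9 was lower in each, but none of these passed the thresholds. The share of all genes whose samples did not overlap between these groups is not given. Single Naive samples held 53.1, 50.04 and 41.2 CPM of Cxcr3 and single Sensitized samples 378, 523, 324 and 308 CPM. The log2 fold change was 2.99 with a standard error (SE) of 0.64 and an adjusted p of 0.0488 by edgeR's quasi-likelihood test. The exact permutation p over samples was 0.0571, the smallest that 4 against 3 samples allow. The adjusted p was 0.134 without Sensitized replicate 2, and 0.386, 0.402 and 0.483 without Naive replicates 1, 2 and 3. It was 0.125 when the library shared with S+P C4 was kept as Naive, and 0.051 when that library was kept as S+P C4. It fell to 7.7e-06 when the 3 samples with fewer than 9000 genes were left out, a fit that called 0.782% of genes in this contrast.

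Cxcr6 was 166, 145 and 166 CPM in the Naive samples and 447, 534, 521 and 421 CPM in the Sensitized samples. All 4 Sensitized samples were above all Naive samples, with a log2 fold change of 1.60 ± 0.61 (SE, edgeR p = 0.0132, adjusted p = 0.627). For Ccr2, Naive samples held 0.082, 6.2 and 1.93 CPM and Sensitized samples 103, 183, 149 and 142 CPM. The groups were far apart, at a log2 fold change of 5.72 ± 1.79 (SE, edgeR p = 0.00316, adjusted p = 0.627), and of 7.16 without Naive replicate 2. The sample with Lyz2, Sensitized replicate 1, was the one at 103 CPM of Ccr2. The monocyte and macrophage marker Csf1r had a median of 0 CPM in both groups and Adgre1 was at 0 in all 4 Sensitized samples. Cd68 had a median of 6.56 CPM in Naive and 10.5 CPM in Sensitized cells. The 10 markers of that list summed to a median of 50.3 CPM in Naive and 17.9 CPM in Sensitized cells, and their part in the difference of Ccr2 was not tested. Cx3cr1 was 17.2, 0 and 0.113 CPM in the Naive samples and 152, 35.4, 401 and 218 CPM in the Sensitized samples. No value of 1 group lay within the other, and the log2 fold change was 5.13 ± 2.29 (SE, edgeR p = 0.0336, adjusted p = 0.627). The log2 fold change was 11.75 without Naive replicate 1 and 4.55 without Naive replicate 2. The 6 markers of natural killer cells summed to 4.61, 5.53 and 0.038 CPM in the Naive samples and to 72.6, 153, 121.5 and 148 CPM in the Sensitized samples. Most of the latter sum was Klrb1c, at 53.3 to 125.9 CPM, while Khdc1a was at 0 in all samples of both groups and Ncr1, the defining marker, was at 0 in 3 of 3 Naive and 3 of 4 Sensitized samples and at 1.9 CPM in the other one. Their part in the difference of Cx3cr1 was not tested.

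Ccr9 ran the other way, at 126, 129 and 111 CPM in Naive samples and 48.5, 39.3, 32.7 and 35.0 CPM in Sensitized samples. The ranges were disjoint, yet the edgeR p was 0.346 (log2 fold change −1.65 ± 1.72, SE) in the fit over all 7 groups. In a fit of Naive and Sensitized samples alone, Ccr9 was called along with Cxcr3, Cxcr6 and Ccr2, and 0.735% of genes were. Ccrl2 was at 0 counts in all Naive samples and at 30.2, 0, 0.03 and 9.63 CPM in Sensitized samples. The Sensitized mean was 88.9-fold the limit that 3 counts per summed sample allow (edgeR p = 0.0144, adjusted p = 0.627), although 2 of the 4 samples were at or near 0. That limit covers sequencing depth and not the sampling of 200 cells, so the ratio is no lower bound of the fold change. Without Sensitized replicate 1 the mean was 3.22 CPM, 28.7-fold that limit. Cxcr4 was 23.5 ± 4.08 CPM (n = 3) in Naive and 23.7 ± 13.3 CPM (n = 4) in Sensitized cells. In this contrast 1 of 7 members was past both thresholds, where 0.153% of the genes tested were. An unadjusted p under 0.05 was reached by 5 of 7, all higher in Sensitized cells, against 7.82% of all genes. DESeq2, which gave no adjusted p for Ccr9 in any contrast, called 4 members (Cxcr3, Ccr2, Cx3cr1 and Ccrl2), against 5.87% of genes. The median log2 fold change was 2.99 over the members and 0.04 over all genes.

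**Figure D2:**
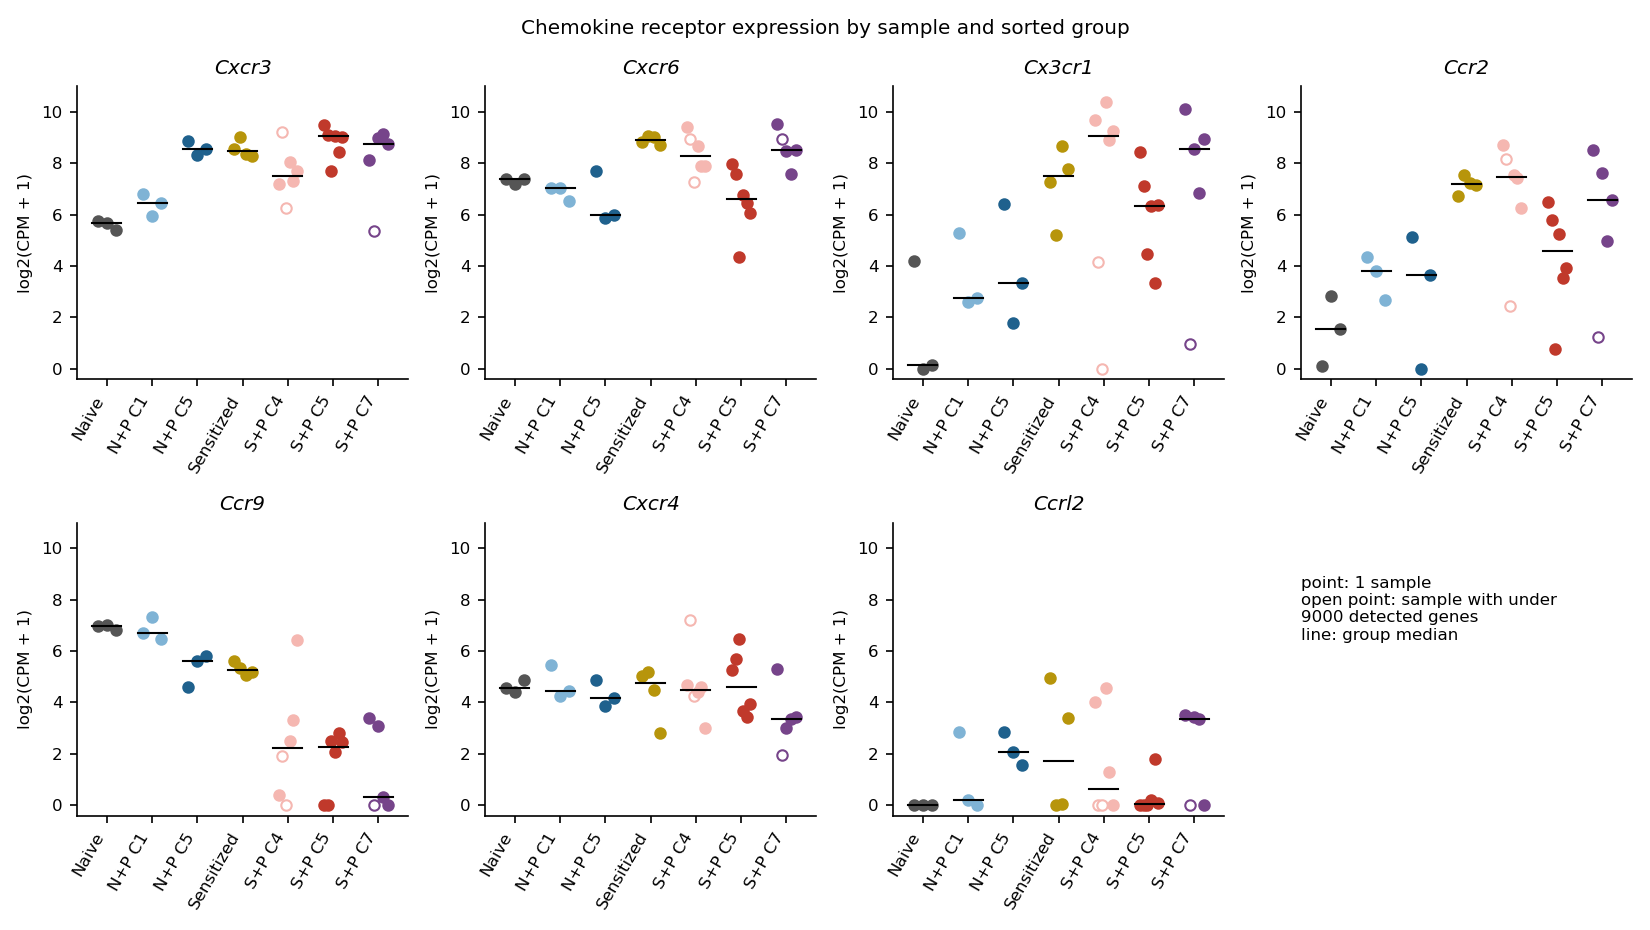
Level of each receptor in each sample (vertical axis, log2 of CPM plus 1) by sorted group (horizontal axis), with 1 point per sample, a line at the group median, and open points for the 3 samples with fewer than 9000 detected genes. Cxcr3 is low in the 6 Naive and N+P C1 samples (41.2 to 110.4 CPM), Cxcr6 lies lower in S+P C5 than in Sensitized cells, and Ccr9 lies lower in the S+P subsets than in Naive cells.

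In naive mothers, the question was what encounter with fetal antigen changes in cells without earlier memory. Cxcr3 was high in the PD1+CD73+ subset and low in the PD1- subset, while Cxcr6, Ccr2, Cx3cr1 and Ccr9 showed no difference from Naive cells that passed the thresholds in either subset. Cxcr3 was 110.4, 60.4 and 86.7 CPM in N+P C1 and 463, 315 and 377 CPM in N+P C5. Every N+P C5 sample was above every N+P C1 and Naive sample. Against Naive, the log2 fold change in N+P C5 was 3.00 ± 0.66 (SE, edgeR p = 7.38e-05), and the adjusted p of 0.132 missed the threshold of 0.1. It was 0.00873 without S+P C7 replicate 3, 0.02625 without S+P C4 replicate 3 and 0.0334 without S+P C4 replicate 2, samples of other groups that enter the common estimate of spread, and 1.39e-05 without all 3. It was 0.804, 0.832 and 0.858 without Naive replicates 1, 2 and 3, 0.566 without N+P C5 replicate 1 and 0.774 with no filter on low counts. Of 41 alternative fits, 10 called it. N+P C5 against N+P C1 gave 2.17 ± 0.64 (SE, edgeR p = 0.00184, adjusted p = 0.919). Cxcr3 was higher in C5 in 3 of 3 same-numbered pairs, and Ccr9 and Cxcr4 were lower in 3 of 3. With the number as a replicate block, the log2 fold change was 2.19 ± 0.15 (SE, edgeR adjusted p = 0.0279), in a fit that called 0.219% of genes. The block assumes that C1 and C5 of 1 number came from 1 mother, which the labels do not state, and 0 of the 3 pairs correlated above 0.1 in their deviations from the group means. The adjusted p over 41 alternative fits ran from 0.00478 to 1.0, and 5 of them called it.

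Cxcr6 was 128, 129 and 91.2 CPM in N+P C1 and 206, 57.7 and 61.4 CPM in N+P C5, so that 1 sample of C5 stood above the Naive range and the other two below it. Ccr2 was 19.3, 12.9 and 5.34 CPM in N+P C1 and 33.5, 0 and 11.5 CPM in N+P C5. Cx3cr1 was 38.1, 5.09 and 5.80 CPM in N+P C1 and 83.5, 2.43 and 9.09 CPM in N+P C5. Both genes were highest in replicate 1 of each subset, and both remained under the lowest Sensitized sample but for Cx3cr1 in replicate 1. Ccr9 was 103, 160 and 88.2 CPM in N+P C1, which spans the Naive values, and 23.2, 48.3 and 54.3 CPM in N+P C5, below all Naive samples (log2 fold change −1.54 ± 1.89, SE, edgeR p = 0.42). Cxcr4 was 27.2 ± 13.5 CPM in N+P C1 and 19.6 ± 7.64 CPM in N+P C5 (n = 3 each). Ccrl2 was 6.18, 0.139 and 0 CPM in N+P C1 and 6.15, 3.24 and 1.92 CPM in N+P C5. With Naive cells at 0, the mean was 18.8-fold the limit of 3 counts in C1 (edgeR p = 0.032, adjusted p = 0.997) and 33.7-fold that limit in C5 (edgeR p = 0.0239, adjusted p = 0.765). The C1 value rests on replicate 1, without which the mean was 0.0697 CPM, under the limit of 0.112 CPM that 3 counts per summed sample allow. Without replicate 1 of C5 the mean there was 23.1-fold that limit. In N+P C1 against Naive, 0 of 7 members passed the thresholds by edgeR (0% of genes), 1 had an unadjusted p under 0.05 (3.23% of genes) and DESeq2 called 1, Ccrl2 (4.06% of genes). In N+P C5 against Naive, 0 passed (0.0407% of genes), 2 had an unadjusted p under 0.05 (5.33%) and DESeq2 called 2, Cxcr3 and Ccrl2 (5.44%). In N+P C5 against N+P C1, 0 passed (0.00509%), 1 had an unadjusted p under 0.05 (4.31%) and DESeq2 called 1, Cxcr3 (4.53%).

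The next comparisons asked how memory TFGS stood after pregnancy, with the 3 subsets of Sensitized mothers set against the same 4 Sensitized samples. Gate and time since the graft cannot be told apart from pregnancy here. In PD1+CD73+ cells Cxcr6 averaged 119 ± 84.4 CPM (SD, n = 6) against 481 ± 55.5 CPM (n = 4) in Sensitized cells, although the difference missed the adjusted threshold. Ccr2 and Ccr9 were lower as well in each S+P C5 sample, and the log2 fold change of Cxcr3 was 0.31, with a 95% interval from −0.64 to 1.26. Cxcr6 in S+P C5 had a lowest value of 19.6, a median of 97.1 and a highest value of 249 CPM, all below the 421 to 534 CPM of Sensitized cells. The log2 fold change was −2.01 ± 0.49 (SE, edgeR p = 0.000249), and the adjusted p was 0.196. The exact permutation p was 0.00952, the smallest that 6 against 4 samples allow. The adjusted p was 0.0787 without S+P C5 replicate 1, 0.08125 without S+P C4 replicate 3 and 0.0279 without the 3 samples of few genes, and DESeq2 gave 0.00475. It was 0.48 without Sensitized replicate 2, 0.356 without S+P C5 replicate 6 and 0.784 with a block on the number alone. Of 41 alternative fits, 6 called it. In S+P C4, Cxcr6 ran from 151 to 685 CPM with a median of 320.5 CPM, and in S+P C7 it was 726, 492, 351, 192 and 359 CPM. Both ranges held the Sensitized values. Fyco1, the gene around Cxcr6, was 53.3 ± 24.9 CPM (n = 6) in S+P C5 and 66.3 ± 25.3 CPM (n = 4) in Sensitized cells.

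Ccr2 in S+P C5 ran from 0.692 to 89.5 CPM with a median of 25.5 CPM, below every Sensitized sample (log2 fold change −2.07 ± 1.16, SE, edgeR p = 0.0844). It was 4.47 to 418 CPM with a median of 177 CPM in S+P C4, and 362, 1.35, 193, 30.7 and 92.8 CPM in S+P C7. The lowest values of all 3 subsets were from replicate 3, whose C4 and C7 samples had fewer than 9000 genes. Cx3cr1 ran from 0 to 1344 CPM in S+P C4 with a median of 539 CPM, from 9.003 to 345 CPM in S+P C5 with a median of 80.4 CPM, and was 1114, 0.934, 378, 114 and 486 CPM in S+P C7. Its 2 lowest samples in C4, at 0 and 16.6 CPM, and its lowest in C7 were the 3 samples of few genes. Without these, Cx3cr1 was 808 ± 383 CPM in S+P C4 (n = 4) and 523 ± 424 CPM in S+P C7 (n = 4), against 202 ± 153 CPM in Sensitized cells (n = 4). The edgeR p over all samples was 0.387 for C4, 0.58 for C5 and 0.526 for C7 against Sensitized. The natural killer cell markers also differed between these groups, their median sum being 368 CPM in C4, 50.8 CPM in C5, 130.1 CPM in C7 and 134.8 CPM in Sensitized cells. Klre1, a lectin-like receptor gene also expressed by some CD8+ T cells, was the most abundant of them in the 3 subsets, whereas Ncr1 was at 0 in 4 of 6 C4 samples, 6 of 6 C5 samples and 2 of 5 C7 samples. S+P C7 replicate 3, with the highest sum of these markers, held 0.934 CPM of Cx3cr1. It was a single library of few genes and also held the highest erythroid and B cell sums. The part of natural killer cell markers in the values of Cx3cr1 was not tested.

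Ccr9 was at most 6.08 CPM in S+P C5 and 9.61, 0, 7.58, 0.259 and 0 CPM in S+P C7, below all 4 Sensitized samples. The log2 fold changes were −3.65 ± 1.51 (SE, edgeR p = 0.0219, adjusted p = 0.29) and −3.47 ± 1.61 (SE, edgeR p = 0.0389, adjusted p = 0.473), the latter −4.31 without the averaged C7 sample of replicates 1 and 2. In S+P C4, 5 of 6 samples were at 8.88 CPM or less, and replicate 6 was at 85.7 CPM. Cxcr3 ran from 206 to 710.1 CPM in S+P C5 with a median of 524 CPM, and from 76.1 to 586 CPM in S+P C4 with a median of 179.6 CPM. In S+P C7 it was 275, 39.6, 505, 566 and 426 CPM. Of the C4 samples, 5 of 6 lay below the lowest Sensitized sample, and the sixth, at 586 CPM, was replicate 2 with few genes (edgeR p = 0.16). Cxcr4 was 40.2 ± 53.4 CPM in C4 (n = 6), 35.2 ± 30.3 CPM in C5 (n = 6) and 13.5 ± 14.2 CPM in C7 (n = 5), all overlapping the 6.0 to 35.8 CPM of Sensitized cells. Ccrl2 was at 0 in 3 of 6 C4 samples, in 3 of 6 C5 samples and in 2 of 5 C7 samples, with group maxima of 22.4, 2.52 and 10.4 CPM.

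Counted over these contrasts, edgeR called 0 of 7 members in S+P C4 against Sensitized (0.00509% of genes), with 0 at an unadjusted p under 0.05 (12.7%) and 0 by DESeq2 (4.96%). For S+P C5 against Sensitized it called 0 (0.0712%), with 2 at an unadjusted p under 0.05, both lower in C5 (13%), and DESeq2 called 1, Cxcr6 (5.33%). For S+P C7 against Sensitized it called 0 (0.0305%), with 1 at an unadjusted p under 0.05 (10.2%) and 0 by DESeq2 (4.05%). The members' median log2 fold change was −0.39, −2.01 and −0.18 in the 3 contrasts, and that of all genes −0.14, −0.01 and 0. Fold changes that involve S+P C4 are to be read with that shift, which was −0.14 against Sensitized, 0.11 for C5 against C4 and 0.23 for C7 against C4.

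**Figure D3:**
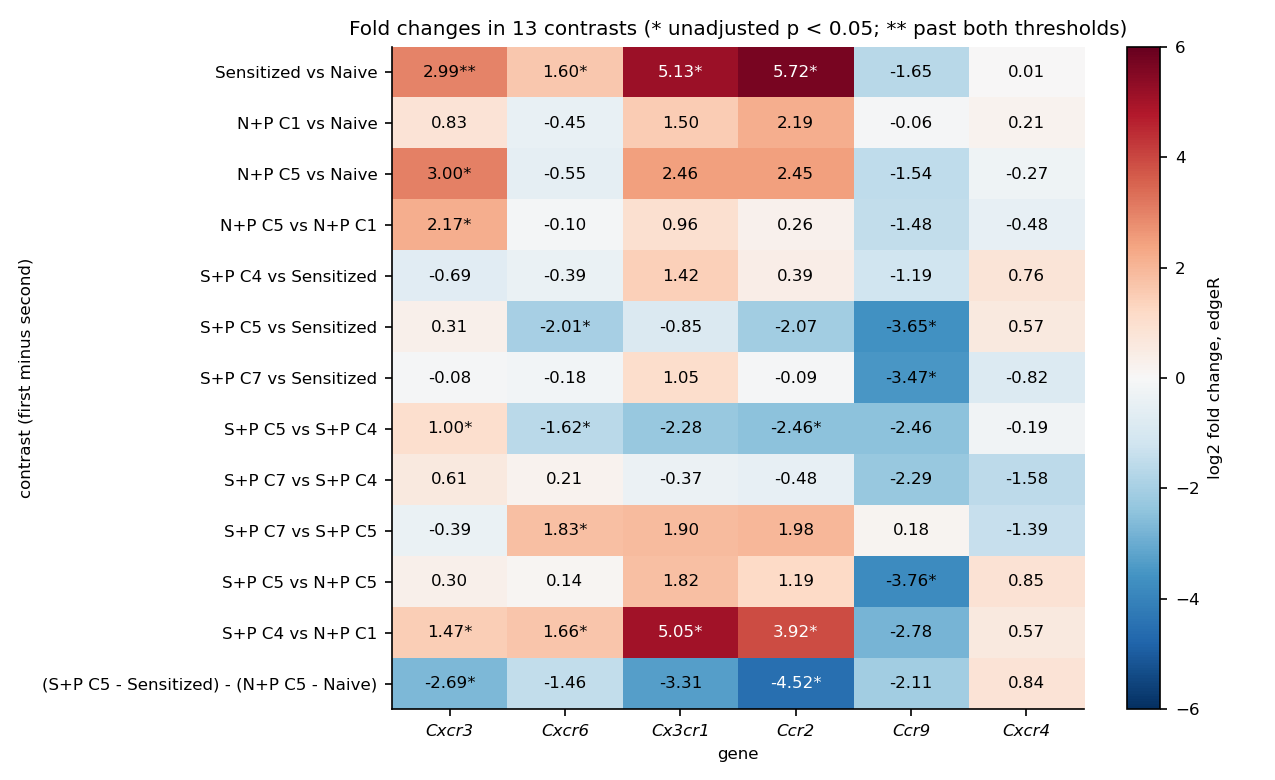
Log2 fold changes from edgeR (colour and printed value, first group minus second) for 6 receptors (columns) in 13 contrasts (rows), with 1 asterisk for an unadjusted p under 0.05 and a pair of asterisks for both thresholds. Ccrl2 is not drawn, as it was at 0 in all Naive samples. Only Cxcr3 in Sensitized against Naive, at 2.99, carries the pair of asterisks.

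Subsets of 1 mother could be set side by side, C4, C5 and C7 with the same number being taken as 1 animal, which the labels do not state. Their deviations from the group means correlated above 0.1 in 3 of 6 pairs of C4 and C5, 4 of 5 of C4 and C7 and 3 of 5 of C5 and C7, the averaged C7 sample being set beside number 1. Cxcr6 was lower in C5 than in C4 in 6 of 6 same-numbered pairs and lower in C5 than in C7 in 4 of 4, and Ccr2 showed the same counts. Cxcr3 was higher in C5 than in C4 in 5 of 6, and Cxcr4 higher in C5 than in C7 in 4 of 4. The share of all genes with such counts is not given. For C5 against C4, Cxcr6 had a log2 fold change of −1.62 ± 0.45 (SE, edgeR p = 0.00107, adjusted p = 0.297) and a median within-mother difference of −1.64, the 6 differences lying between −2.94 and −1.38. Ccr2 gave −2.46 ± 1.10 (SE, edgeR p = 0.033, adjusted p = 0.321), with a within-mother median of −2.38 and a range from −4.02 to −2.22. With the mouse as a replicate block, the Ccr2 estimate was −2.73 ± 0.50 (SE, edgeR p = 9.59e-05, adjusted p = 0.122), in a fit where the median over all genes was 0.68. Levels of Ccr2 varied widely between mothers, from 4.47 to 418 CPM in C4. Cxcr3 in C5 against C4 gave 1.00 ± 0.44 (SE, edgeR p = 0.0292, adjusted p = 0.314), and 1.30 ± 0.28 (SE, edgeR adjusted p = 0.0588) without the 3 samples of few genes. With the number as a replicate block its adjusted p was 0.573, and 2 of 41 alternative fits called it. For C7 against C5, Cxcr6 gave 1.83 ± 0.47 (SE, edgeR p = 0.000442, adjusted p = 0.278). Cx3cr1 was lower in C5 than in C4 in 4 of 6 pairs, the exceptions being replicates 2 and 3, whose C4 samples had few genes.

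In C5 against C4, 0 of 7 members passed the thresholds by edgeR (0.0305% of genes), 3 had an unadjusted p under 0.05 (13.3%) and DESeq2 called 1, Cxcr6 (5.24%). In C7 against C4, 0 passed (0.00509%), 0 had an unadjusted p under 0.05 (15.9%) and DESeq2 called 0 (4.9%). In C7 against C5, 0 passed (0%), 1 had an unadjusted p under 0.05 (12.7%) and DESeq2 called 1, Cxcr6 (3%).

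**Figure D4:**
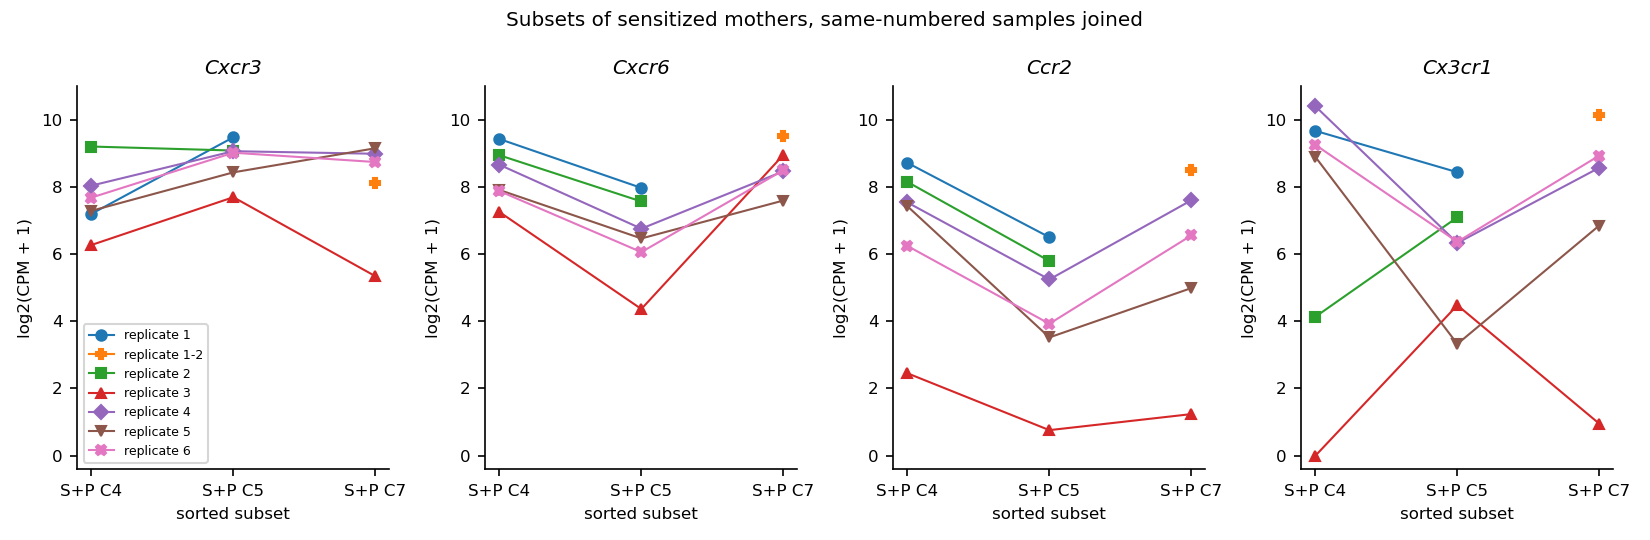
Cxcr3, Cxcr6, Ccr2 and Cx3cr1 in the S+P C4, C5 and C7 samples (horizontal axis) as log2 of CPM plus 1 (vertical axis), with samples of the same number, taken as 1 mother, joined by a line and the averaged sample of replicates 1 and 2 in C7 drawn alone. Cxcr6 and Ccr2 are lower at C5 along each line, whereas Cxcr3 is higher in C5 than in C4 in 5 of 6 pairs.

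Mothers with and without earlier sensitization were compared within the same gate. Among PD1- cells, the means of Cxcr6, Ccr2, Cx3cr1 and Cxcr3 were higher in S+P C4 than in N+P C1, though none passed the thresholds. Cxcr6 was higher in all 6 S+P C4 samples than in any N+P C1 sample (log2 fold change 1.66 ± 0.58, SE, edgeR p = 0.00767, adjusted p = 0.443, exact permutation p = 0.0238, the smallest possible). Ccr2 gave 3.92 ± 1.59 (SE, edgeR p = 0.0193, adjusted p = 0.449) and was above the N+P C1 range in 5 of 6. Cx3cr1 gave 5.05 ± 2.23 (SE, edgeR p = 0.0324, adjusted p = 0.481), above that range in 4 of 6, and 6.64 without N+P C1 replicate 1. Cxcr3 gave 1.47 ± 0.57 (SE, edgeR p = 0.0142, adjusted p = 0.443), above it in 5 of 6. The exact permutation p was 0.0952 for Ccr2, 0.476 for Cx3cr1 and 0.0714 for Cxcr3. Ccr9 was lower in all 6 (log2 fold change −2.78 ± 1.54, SE, edgeR p = 0.0819), with −5.11 when S+P C4 replicate 6 was left out. Here edgeR called 0 of 7 members (0.061% of genes), 4 had an unadjusted p under 0.05, all higher in S+P C4 (9.22%), and DESeq2 called 3, Cxcr6, Ccr2 and Cx3cr1 (5.67%).

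Among PD1+CD73+ cells Ccr9 was the 1 receptor with an unadjusted p under 0.05. Cxcr6 was 119 ± 84.4 CPM in S+P C5 (n = 6) and 109 ± 84.9 CPM in N+P C5 (n = 3), a log2 fold change of 0.14 with a 95% interval from −0.92 to 1.20. It was 1.01 without N+P C5 replicate 1 and −0.21 without S+P C5 replicate 1. Cxcr3 was 475 ± 176 CPM and 385 ± 74.1 CPM, a log2 fold change of 0.30 with an interval from −0.75 to 1.35. Ccr9 was lower in all 6 S+P C5 samples than in any N+P C5 sample (log2 fold change −3.76 ± 1.58, SE, edgeR p = 0.0233, adjusted p = 0.828). Here edgeR called 0 of 7 members (0% of genes), 1 had an unadjusted p under 0.05 (5.88%) and DESeq2 called 0 (4.12%).

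Whether pregnancy moved the PD1+CD73+ cells of Sensitized mothers differently from those of naive mothers was tested as an interaction, the change from Sensitized to S+P C5 minus the change from Naive to N+P C5. Any effect of time since the graft would enter the former change. For Cxcr3 the difference was −2.69 ± 0.79 on the log2 scale (SE, edgeR p = 0.00176, adjusted p = 0.649). It combines a change of 0.31 in Sensitized mothers with 3.00 in naive mothers, and its adjusted p was 0.00259 without the 3 samples of few genes. When each sample was left out in turn, the adjusted p lay between 0.216 and 1.0. Of 41 alternative fits, 5 called it. Ccr2 gave −4.52 ± 1.97 (SE, edgeR p = 0.0289, adjusted p = 0.694), from −2.07 and 2.45. It was −5.96 without Naive replicate 2, −3.14 without N+P C5 replicate 1 and −5.14 without N+P C5 replicate 2. Ccrl2, which has no finite fold change against Naive, had an edgeR p of 0.0075 and an adjusted p of 0.649. By edgeR 0 of 7 members were called (0.0254% of genes), 3 had an unadjusted p under 0.05, all negative (6.42%), and DESeq2 called 2, Cxcr3 and Ccrl2 (4.69%). Over all 13 contrasts, 24 of 91 tests of a member had an unadjusted p under 0.05, against 9.23% of all tests, and 1 was past both thresholds, against 0.0329%. Without the 3 samples of few genes, edgeR called Cxcr3 in 5 contrasts and Cxcr6 in 1, and more genes of any kind. In that fit 0.614% of genes were called in N+P C5 against Naive, 0.0767% in N+P C5 against N+P C1, 1.02% in S+P C5 against Sensitized, 0.169% in S+P C5 against C4 and 0.138% in the interaction.

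Other genes of the chemokine system were read from lists of 18 further receptors, 36 ligands, 44 signalling genes and 18 transcription factors. Of 11 further receptors tested, 0 passed the thresholds by edgeR in any contrast when all samples were fitted. In Sensitized against Naive, however, 6 of the 30 fits that left out 1 sample called 1. Without the 3 samples of few genes 2 were called there (0.782% of all genes), 2 for S+P C7 against Sensitized (0.353%) and 1 for S+P C5 against Sensitized (1.02%). At an unadjusted p under 0.05 there were 5 after graft rejection (Sensitized against Naive), 2 in the PD1+CD73+ cells of naive mothers (against Naive) and 4 in those of Sensitized mothers (against Sensitized), where 7.82%, 5.33% and 13% of all genes were. DESeq2 called 3, 0 and 2, against 5.87%, 5.44% and 5.33% of all genes. The 5 were 3 higher and 2 lower in Sensitized than in Naive cells. The median log2 fold change in that contrast was 0.51 over the further receptors, 0.97 over the ligands and 0.48 over the transcription factors, beside 0.04 over all genes. Ccr7, which guides cells into lymph nodes and is the most abundant of the further receptors per length, was 271 ± 179 CPM in Sensitized (n = 4) and 1258 ± 143 CPM in Naive cells (n = 3). The log2 fold change was −2.22 ± 0.77 (SE, edgeR p = 0.00722, adjusted p = 0.627). In N+P C5 against Naive, Ccr6, the CCL20 receptor, was at 0 in all Naive samples and at 6.54 ± 6.24 CPM in N+P C5 (n = 3), with 1 of the 3 at 0. In S+P C5 against Sensitized, Ccr7 gave −1.65 ± 0.64 (SE, edgeR p = 0.0147, adjusted p = 0.277). Ccr6 was at 0 in all Sensitized samples and 12.2 ± 9.67 CPM in S+P C5 (n = 6). This was 130.4-fold the limit that 3 counts per summed sample allow (edgeR p = 0.00443, adjusted p = 0.277), a limit of depth alone.

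Of 15 ligands tested, 1 rose past both thresholds in Sensitized against Naive cells (0.153% of all genes). This was Ccl5, a chemokine stored in memory CD8+ T cells and the most abundant ligand, at 7522 ± 2334 CPM (n = 4) against 160 ± 64.2 CPM (n = 3), with a log2 fold change of 5.56 ± 0.80 (SE, edgeR adjusted p = 0.00138). Ccl4 gave 2.08 ± 1.02 in the same contrast (SE, edgeR p = 0.0494, adjusted p = 0.627). Ccl5 also rose in S+P C4 against N+P C1 (4.91 ± 0.76, SE, edgeR adjusted p = 0.00282). In S+P C5 against Sensitized cells, 0 ligands passed by edgeR, 4 being higher and 1 lower at an unadjusted p under 0.05 (13% of all genes), and DESeq2 called 4 (5.33%). Xcl1, the ligand of XCR1 on cross-presenting dendritic cells, gave 3.53 ± 1.12 (SE, edgeR p = 0.00349, adjusted p = 0.277). Ccl1 was at 0 in all Sensitized samples and in 5 of 6 S+P C5 samples, the other one, replicate 3, holding 120.7 CPM. In N+P C5 against Naive, where 0 passed, 5 had an unadjusted p under 0.05 (5.33% of all genes) and DESeq2 called 5 (5.44%). There Ccl5 gave 2.02 ± 0.69 (SE, edgeR p = 0.00722, adjusted p = 0.765), and Ccl6 was 0.0097 ± 0.0169 CPM against 30.4 ± 30.4 CPM in Naive cells (edgeR adjusted p = 0.765).

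Of 42 signalling genes tested, 0 passed by edgeR in these contrasts. At an unadjusted p under 0.05 there were 3 after graft rejection, and 2 and 4 in the PD1+CD73+ cells of naive and Sensitized mothers, where 7.82%, 5.33% and 13% of all genes were. By DESeq2 there were 2, 2 and 1 (5.87%, 5.44% and 5.33% of all genes). Their median log2 fold change was −0.04 for graft rejection (Sensitized against Naive), where all genes had 0.04, and −0.0019 for PD1+CD73+ memory cells after pregnancy (S+P C5 against Sensitized), where all genes had −0.0052. Coro1a, an actin regulator, was their most abundant gene per length. The smallest p in Sensitized against Naive belonged to Rhoh, at −0.96 ± 0.33 (SE, edgeR p = 0.0062, adjusted p = 0.627). Rgs16, a regulator that switches G protein signals off, was at 0 in all Naive samples, at 0 in 3 of 4 Sensitized samples with 5.52 CPM in replicate 1, and at 23.5 ± 18.6 CPM in N+P C5 (n = 3). In S+P C5 against Sensitized, Rap1a, a GTPase of integrin activation, gave 1.15 ± 0.41 (SE, edgeR p = 0.00867, adjusted p = 0.277), and Pik3r5, a regulatory subunit of PI3K-gamma, gave −1.65 ± 0.67 (SE, edgeR p = 0.0204, adjusted p = 0.286). In N+P C5 against Naive, Gnai2, an inhibitory G protein subunit, gave 1.12 ± 0.44 (SE, edgeR p = 0.0152, adjusted p = 0.765).

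Of 18 transcription factors tested, 3 rose in Sensitized against Naive cells and 0 fell, where 0.153% of all genes were called, all of them higher. Id2, which sustains effector CD8+ T cells and was the most abundant of the list, gave 2.46 ± 0.40 (SE, edgeR adjusted p = 0.00217). Bhlhe40, a regulator of mitochondrial fitness in tissue T cells, gave 10.47 ± 1.85 (SE, edgeR adjusted p = 0.00547), from 0.132 ± 0.114 CPM in Naive (n = 3) to 188 ± 93.6 CPM (n = 4). Zeb2, which acts with T-bet in terminal effector cells, gave 10.24 ± 2.12 (SE, edgeR adjusted p = 0.0343), from 0.0964 ± 0.0861 CPM to 122 ± 55.9 CPM. With Naive levels so near 0, the size of these last 2 fold changes is uncertain, and without Naive replicate 2 they were 9.87 and 10.89. With the library shared with S+P C4 kept as Naive they were 4.37 and 5.65 (edgeR adjusted p = 0.618 for both), and Zeb2 had an adjusted p of 0.373, 0.261 and 0.361 without Naive replicates 1, 2 and 3. Naive samples without the shared library held at most 0.206 CPM of Bhlhe40 and 0.166 CPM of Zeb2. To which of the groups that library belongs was not settled. In N+P C5 against Naive, where 8 of all 19657 genes were called, Bhlhe40 was the 1 factor called (10.81 ± 1.89, SE, edgeR adjusted p = 0.0164). Zeb2 was next at 8.24 ± 1.99 (SE, edgeR adjusted p = 0.193). The adjusted p of Bhlhe40 was 0.23, 0.152 and 0.16 without Naive replicates 1, 2 and 3, and its log2 fold change was 10.21 without Naive replicate 2 and 4.72 (edgeR adjusted p = 0.777) with the shared library kept as Naive. The Bhlhe40 interaction between the pregnancy effects was −10.28 ± 1.962 (SE, edgeR adjusted p = 0.0529). It was −9.68 without Naive replicate 2 and −4.18 (edgeR adjusted p = 0.732) with the shared library kept as Naive, and its adjusted p lay between 0.101 and 0.579 when any of 10 single samples was left out. Id2 rose in S+P C4 against N+P C1 (1.94 ± 0.37, SE, edgeR adjusted p = 0.0264), but the adjusted p was 0.503, 0.564 and 0.411 without N+P C1 replicates 1, 2 and 3. In S+P C5 against Sensitized 0 passed by edgeR, 4 had an unadjusted p under 0.05 (13% of all genes) and DESeq2 called 1 (5.33%). The smallest p were those of Hif1a (2.36 ± 0.82, SE, edgeR p = 0.00735) and Id2 (−0.85 ± 0.30, SE, edgeR p = 0.00853).

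The genes whose log2 CPM ran most like that of each receptor over the 30 samples were taken from 8244 genes with a mean of at least 10 CPM. The samples share group and, within mothers, animal, so these values are descriptions. For Cx3cr1 they were Tbx21 (Pearson r = 0.85), which encodes T-bet, Zeb2 (0.84) and Dapk2 (0.84). For Ccr2 they were Klrg1 (0.82), a receptor of terminal effector cells, Gzmb (0.81), which encodes granzyme B, and Anxa1 (0.77). Cxcr6 ran with Prf1 (0.78), the perforin gene, Myo1f (0.74) and Gzma (0.73). Cxcr3 ran with Gabarapl1 (0.83), Itgb1 (0.82), an integrin subunit, and Bhlhe40 (0.81). Ccr9 was most like Slc16a5 (0.84), Gm37248 (0.78) and Siah1a (0.78). Cxcr4 and Ccrl2 had weaker matches, Tbca (0.73), Gm15472 (0.725) and H4c3 (0.70) for the first and H2-K1 (0.66), Arhgdia (0.64) and Slc2a8 (0.62) for the second. Ranked by Spearman's rho, the first gene of the Pearson list kept the first place for Ccr2 and Ccr9, and fell to place 73 for Cxcr3.

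Among the 7 receptors, deviations from the group means were compared over the 30 samples. Cxcr6 and Ccr2 deviated together (r = 0.62, and 0.72 over the 27 samples with 9000 genes or more), so that a sample rich in 1 for its group was mostly rich in the other. Cxcr3 with Ccr2 (r = 0.62) and Ccr2 with Cx3cr1 (r = 0.54) went down to 0.37 and 0.23 over the 27 samples. Cxcr6 and Ccr9 were the pair with the lowest value, at −0.26 and −0.45.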

How the data were processed

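Per the labels and the study's methods, the authors trimmed reads with cutadapt 3.4, aligned them to GRCm39 with STAR 2.6.1b, removed reads that did not map uniquely and counted them with featureCounts 2.0.1. The deposited table holds raw counts of 55359 genes in 56 libraries. The strand option and the annotation release are not given in the sources used here, and symbols came from GENCODE M39 (54749 genes matched). Libraries of 1 mouse and subset were summed into 30 samples, and CPM were taken over all genes. The groups followed the sample labels. For S+P C4, C5 and C7 these labels give more replicate numbers than the study's legend gives biological samples for any group. All 7 groups entered 1 edgeR 4.0.16 quasi-likelihood fit (R 4.3.3, TMM, minimum count 10) with Benjamini-Hochberg adjustment over 19657 genes. A gene was called when its adjusted p was below 0.1 and it differed by more than 0.9 on the log2 scale, which are the study's thresholds. DESeq2 1.42.0, other filters, scalings and left-out samples were alternatives. Single values were compared with a two-sided exact permutation test (scipy 1.17.1). Shares of all genes without overlap between groups, or with the same direction in all pairs, are not given.

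Same-numbered subsets of mothers were taken as 1 mouse, since the study sorted individual mice, although the labels do not state it. Their deviations from group means correlated at a mean of 0.109 (S+P C4 and C5), 0.174 (C4 and C7), 0.116 (C5 and C7) and 0.047 (N+P C1 and C5). The members and lists were chosen with earlier results of these data known. Named list genes were those past both thresholds or, where fewer than 2 were, those with the smallest p, plus the most abundant. Some genes of these lists are not reported here. SDs and p-values measure the spread between mice and libraries of 200 cells, and total counts limit the lowest levels to 3 counts per summed sample.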

Additional observations from a re-analysis of the deposited data

Results flagged for a closer look

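The 28 combinations of a receptor and a group of 4 to 6 samples were searched for a sample far from the others. Of these, 5 stood out, and chance alone gives about 1 in 20. Cxcr3 in S+P C4 replicate 2 was 586.475 CPM, against 76.1 to 261.4 CPM in the other S+P C4 samples. Cxcr4 in the same sample was 148.481 CPM, against 7.09 to 24.4 CPM. This sample had 8002 detected genes. Cxcr4 in the averaged sample of S+P C7 replicates 1 and 2 was 38.418 CPM, against 2.90 to 9.83 CPM in the other S+P C7 samples. Ccr9 in S+P C4 replicate 6 was 85.681 CPM, against 0 to 8.88 CPM in the others. Ccrl2 in S+P C5 replicate 5 was 2.518 CPM, against 0 to 0.149 CPM in the others.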

How the results depend on the processing

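Of the 91 pairs of a receptor and a contrast, 25 changed sign in at least 1 other edgeR or DESeq2 fit, and 11 of 84 had the opposite sign when mean log2 CPM were compared. In all of these the unadjusted p was 0.128 or higher, and 0 of the 24 pairs with an unadjusted p under 0.05 were among them. By mean log2 CPM, Cx3cr1 differed by −0.84 in S+P C4 and −0.32 in S+P C7 against Sensitized, where the edgeR log2 fold changes were 1.42 and 1.05. Among pairs whose fold change is given, Cxcr6 in S+P C5 against N+P C5 changed sign, from −0.21 to 1.01 over the fits that left out 1 sample. In Sensitized against Naive, where 1 member was called, 0 were called with no filter on low counts, with a block on the replicate number only, with all 56 libraries kept, or with the shared library kept as Naive. With that library kept as S+P C4, Cxcr3 kept its call (edgeR adjusted p = 0.051). The count rose to 4 when only the groups compared were fitted (0.735% of genes), 3 with each technical library as a sample (1.02%) and 4 by DESeq2 (5.87%). In the contrasts where 0 were called, DESeq2 called 1 in N+P C1 against Naive, 2 in N+P C5 against Naive, 1 in N+P C5 against N+P C1, 1 in S+P C5 against Sensitized, 1 in S+P C5 against C4, 1 in S+P C7 against C5, 3 in S+P C4 against N+P C1 and 2 in the interaction. With each technical library as a sample, a fit in which the libraries of 1 mouse are not independent, the same contrasts in that order had 0, 1, 1, 2, 2, 1, 4 and 1 (0.0544%, 0.653%, 0.169%, 6.86%, 4.77%, 2.96%, 2.9% and 0.998% of genes). Leaving out the samples with under 9000 genes gave 1 in N+P C5 against Naive, N+P C5 against N+P C1, S+P C5 against Sensitized, S+P C5 against C4 and the interaction. Fitting only the groups compared gave 1 in N+P C5 against Naive (0.438% of genes), N+P C5 against N+P C1 (0.386%) and the interaction (0.184%). RLE factors gave 1 in N+P C5 against Naive (0.056%), and a minimum mean of 10 CPM gave 1 there (0.289%) and 1 in S+P C5 against Sensitized (0.313%).

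The replicate block of the same mice gave 1 in N+P C5 against N+P C1 (Cxcr3) and changed no other call of a member. A block on the number alone, where Naive and Sensitized mice share nothing but a number, gave 1 in the interaction (0.0673% of genes) and 1 for N+P C5 against Naive (0.0846%). When each sample was left out in turn, the count ran from 0 to 1 for Sensitized against Naive, for S+P C5 against Sensitized and for N+P C5 against Naive, and was 0 in the rest. The cause of these changes was not tested, except that leaving out a Naive sample leaves only 2. In the lists, leaving out the samples of few genes gave 1 ligand and 4 transcription factors in N+P C5 against Naive (0.614% of all genes). In S+P C5 against Sensitized it gave 1 ligand, 2 signalling genes and 1 transcription factor (1.02% of all genes). The transcription factors called in N+P C5 against Naive ran from 0 to 2 over the fits that left out 1 sample, with 0 when any 1 Naive sample was left out. With no filter on low counts, Id2 lost its call in Sensitized against Naive (edgeR adjusted p = 0.399) and in S+P C4 against N+P C1 (0.461). Under the block on the number alone, Sensitized against Naive lost the calls of Id2 (edgeR adjusted p = 0.174), Bhlhe40 (0.141), Zeb2 (0.196) and Ccl5 (0.13), and S+P C4 against N+P C1 those of Ccl5 (0.562) and Id2 (0.155). Ccrl2, at 0 in 29 of 54 libraries, was the member most often at the limit that a count of 0 allows, and the part of depth and of the sampling of 200 cells in this was not tested.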
